A study of Homo sapiens with 6 samples.

Results

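The HOX genes of the A, B, C and D clusters were examined in HEK293T cells. This established line was made from kidney of a human embryo and expresses the large T antigen of SV40. Every row of the expression table whose gene name was HOXA, HOXB, HOXC or HOXD followed by a number was taken, which gave 39 of the 37879 rows. Total RNA had been hybridised to 6 Illumina HumanWG-6 v3 BeadChip arrays. The 3 control samples came from cells transfected with the empty vector, and the 3 Stau1 samples from cells given a plasmid that codes for Stau1-55-FLAG, the FLAG-tagged 55-kDa isoform of the double-stranded RNA-binding protein Staufen1. All 6 samples were prometaphase cells collected after nocodazole, a drug that blocks spindle assembly (50 ng/ml for 15 h per the labels), and no asynchronous cells were among them. The transfection was transient, and the share of cells that took up the plasmid was not measured here.

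HOX genes encode homeodomain transcription factors that give positional identity along the body axis. In each cluster the genes lie side by side on one chromosome in the order of their paralog numbers, and low numbers are used in anterior and high numbers in posterior regions of the embryo. Trithorax and MLL complexes hold the clusters active, Polycomb complexes hold them silent, and retinoic acid and CDX proteins are inputs to them in the embryo. The kidney arises from posterior mesoderm in which HOX10 and HOX11 genes are known to act.

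The array records an intensity for each gene and a detection p. This p is the share of negative control probes of the same array that were at least as bright. A row averaged over several probes carries 1 combined p, which can fall below the step of 1 in 759 of a single probe. A gene was counted as detected on an array where this p was under 0.05. Beyond that, intensities of different genes were not set against each other, since each probe has its own response. Because the RNA came from bulk samples, fewer cells expressing a gene and less RNA per cell cannot be told apart. The intensity that a gene of 1 probe needed for detection ran from 96.9 to 119 over the 6 arrays, which held 12730 to 13469 detected rows each, and 31 of the 39 HOX rows rested on 1 probe. The 6 detected HOX rows of several probes all had mean intensities above this limit on all 6 arrays. The row of STAU1, the gene carried by the plasmid, read 11.19, 11.38 and 11.36 (log2) in the control samples and 11.39, 11.51 and 11.47 in the Stau1 samples. Its 2 groups did not overlap, but its change of 0.15 (log2, SE 0.09) did not pass the test (limma adjusted p = 0.999). The plasmid's RNA could only be seen where it carried the probed sequence, which was not examined, so this row checks the labels weakly.

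The promoter windows of 4 HOX genes (for HOXA10, 1 of its windows) and 1 shared window are shown because they belong to genes on both sides of the detection threshold. RefSeq windows (GRCh38.p14, 250 bases before to 50 after a transcript start, written 5′ to 3′ on the strand of the gene) were matched for 20 of the 39 HOX genes. HOXA7, HOXA9 and HOXA10 lie in the same cluster on chromosome 7, and of these HOXA7 was near background while HOXA9 and HOXA10 were detected on all 6 arrays. HOXC4 and HOXC5 have the same window on chromosome 12, and HOXC4 was detected on 6 arrays and HOXC5 on 4. HOXD13, on chromosome 2, was brighter than every negative control probe on all 6 arrays. Capitals mark the motif TATAAA, searched on both strands, or its reverse complement TTTATA, which overlap in the HOXD13 window.
HOXA7 (chr7:27156626-27156925, minus strand): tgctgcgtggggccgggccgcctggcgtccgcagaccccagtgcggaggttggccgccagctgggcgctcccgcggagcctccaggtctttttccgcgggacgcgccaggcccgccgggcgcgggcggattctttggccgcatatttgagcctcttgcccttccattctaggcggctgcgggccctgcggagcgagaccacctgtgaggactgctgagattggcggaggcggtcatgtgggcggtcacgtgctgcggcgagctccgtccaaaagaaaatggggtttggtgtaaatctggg
HOXA9 (chr7:27165488-27165787, minus strand): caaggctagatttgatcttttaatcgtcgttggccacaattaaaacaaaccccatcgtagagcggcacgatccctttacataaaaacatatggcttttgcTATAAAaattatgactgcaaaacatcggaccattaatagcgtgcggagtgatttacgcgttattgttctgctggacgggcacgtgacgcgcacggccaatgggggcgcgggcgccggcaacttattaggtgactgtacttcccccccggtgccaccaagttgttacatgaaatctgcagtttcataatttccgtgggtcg
HOXA10 (chr7:27179812-27180111, minus strand): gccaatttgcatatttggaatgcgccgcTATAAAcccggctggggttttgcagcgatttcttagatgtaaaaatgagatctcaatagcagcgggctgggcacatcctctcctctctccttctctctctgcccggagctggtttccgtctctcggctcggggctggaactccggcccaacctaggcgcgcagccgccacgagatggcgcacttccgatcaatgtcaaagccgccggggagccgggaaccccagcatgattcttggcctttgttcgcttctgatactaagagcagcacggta
HOXC4 and HOXC5 (chr12:54016638-54016937, plus strand): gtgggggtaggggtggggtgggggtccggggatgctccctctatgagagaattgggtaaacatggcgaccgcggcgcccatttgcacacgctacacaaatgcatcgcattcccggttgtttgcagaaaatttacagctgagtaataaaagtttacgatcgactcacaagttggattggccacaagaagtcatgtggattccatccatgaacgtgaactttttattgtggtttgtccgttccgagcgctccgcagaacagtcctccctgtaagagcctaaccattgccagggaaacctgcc
HOXD13 (chr2:176092471-176092770, plus strand): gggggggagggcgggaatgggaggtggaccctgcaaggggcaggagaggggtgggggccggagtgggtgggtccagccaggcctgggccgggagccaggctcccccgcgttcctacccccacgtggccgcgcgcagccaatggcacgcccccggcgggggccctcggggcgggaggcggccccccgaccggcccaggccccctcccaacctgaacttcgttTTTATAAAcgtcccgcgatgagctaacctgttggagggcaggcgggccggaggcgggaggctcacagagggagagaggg

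Over the 26 distinct HOX windows, TATAAA was found in 5 (19.2%), against 11.6% of all 34943 distinct promoter windows of the same length. The 5 were 1 of the HOXA3 windows, the HOXA9 window, both HOXA10 windows and the HOXD13 window. The motif thus stood in 4 of the 18 windows of detected genes (22.2%). It also stood in 1 of the 8 windows of the undetected HOXA3 and HOXA7 (12.5%). The windows printed above hold it more often than the full set. The motif TTTATGG, a form of the site that CDX proteins bind, was searched on both strands. It was found in 1 HOX window (3.85%), that of HOXD8, against 2.55% of all windows. Other forms of the CDX site were not searched. GC content ran from 43.7% in a HOXA3 window to 76.3% in the HOXA13 window, with a median of 58% against 58.7% over all windows. The HOX windows held a median of 22.5 CpG pairs against 14 over all windows. The 18 windows of detected genes held a median of 23.5 CpG pairs and the 8 windows of HOXA3 and HOXA7 a median of 15, but 7 of those 8 belonged to HOXA3 alone.

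Most HOX genes of all 4 clusters were detected. By the criterion of detection on at least 3 of the 6 arrays, 35 of the 39 HOX genes (89.7%) were detected, against 35.1% of all rows of the table. On all 6 arrays, 33 HOX genes were detected, against 28.8% of all rows. Of the 234 pairs of a HOX gene and an array, 209 were detected. The count was even over the samples, with 35, 34 and 35 HOX genes in the control samples and 36, 34 and 35 in the Stau1 samples. At a stricter detection p under 0.01 on at least 3 arrays, 29 HOX genes (74.4%) were left, against 26.3% of all rows.

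**Figure D1:**
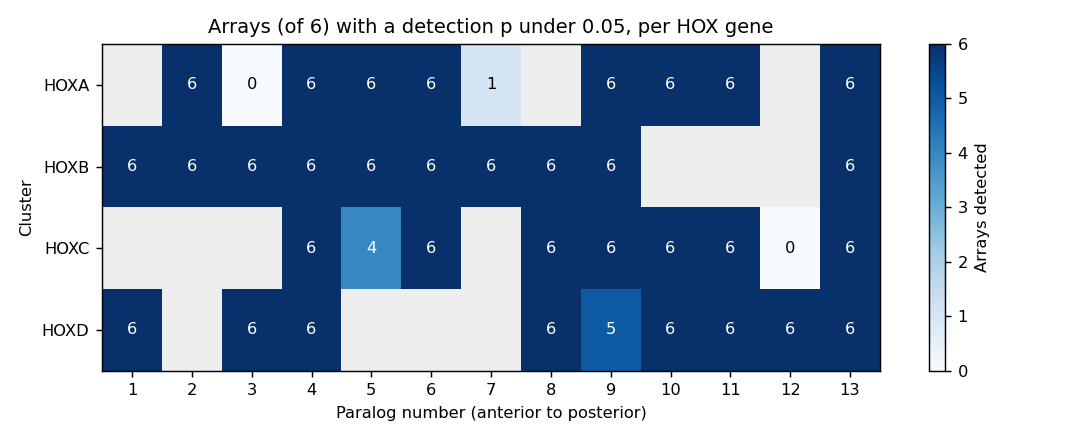
Number of arrays, of 6, on which each of 38 HOX genes had a detection p under 0.05, by cluster (rows) and paralog number (columns). Grey cells have no row in the table or are not shown. HOXA3 and HOXC12 were detected on 0 arrays, HOXA7 on 1, HOXC5 on 4, HOXD9 on 5 and 33 genes on all 6.

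By cluster, detection was complete in HOXB (10 of 10 genes) and HOXD (9 of 9), and covered 8 of 9 genes of HOXC and 8 of 11 of HOXA. The picture changed with the stricter threshold, since the HOXD genes were often near the limit. At p under 0.01 on at least 3 arrays, 7 HOXA genes, 10 HOXB genes, 7 HOXC genes and 5 HOXD genes were counted. Where every one of the 6 arrays had to give p under 0.01, these became 7, 8, 6 and 4 genes. The 4 HOXD genes were HOXD10, HOXD11, HOXD12 and HOXD13, the posterior end of the cluster. By this last criterion, 25 of the 39 HOX genes were counted, against 8726 of all 37879 rows.

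By paralog number, 10 of 12 genes of groups 1 to 4, 10 of 11 of groups 5 to 8 and 15 of 16 of groups 9 to 13 were detected. With p under 0.01 on at least 3 arrays, these became 8, 7 and 14 genes, and with p under 0.01 on all 6 arrays 6, 6 and 13. Group 3 was detected without HOXA3 (2 of 3), group 7 without HOXA7 (1 of 2) and group 12 without HOXC12 (1 of 2). No test was made between clusters or paralog groups, as each gene has its own probe and neighbours in a cluster are not independent.

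In 11 genes the intensity was above every negative control probe on all 6 arrays, a detection p of 0. All 11 were rows of 1 probe. They were HOXA4, HOXA5 and HOXA11, then HOXB2, HOXB5, HOXB7 and HOXB8, then HOXC13, and HOXD10, HOXD11 and HOXD13. HOXA5, with roles in lung and thoracic patterning, had intensities of 5721, 5702 and 8721 in the control samples and 7127, 7838 and 8570 in the Stau1 samples. HOXB5 read 2248, 2777 and 3790 in the control samples and 3132, 3653 and 3824 in the Stau1 samples. These deposited intensities are not normalized, and the array of control replicate 3 was brighter in general than those of control replicates 1 and 2, as the medians over all rows of 102, 88.8 and 88.5 show.

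The genes next to HOXA5 differed in detection. HOXA4 was above every negative control probe on all 6 arrays, with intensities from 261 to 361. HOXA6, on the other side, had intensities from 119 to 167 and detection p from 0.0079 to 0.0211. HOXA7, which follows it, passed on control replicate 2 alone, with a detection p of 0.0408, and gave 0.0540 to 0.181 on its other arrays. HOXA7 was therefore just outside the criterion rather than far below it.

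HOXA9 and HOXA10, best known as regulators of blood progenitors and of Müllerian duct development, were detected on all 6 arrays. The HOXA9 intensities were 1197, 1695 and 2163 in the control samples and 1612, 1886 and 1915 in the Stau1 samples. Those of HOXA10 were 927, 1022 and 1322, and 1066, 1202 and 1206. Both rows average several probes, and both stayed far from the limit, with detection p of at most 2.17e-05.

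The genes that act in kidney formation in the embryo, HOXA11 and HOXD11 with their HOXC11 paralog, were all detected on 6 arrays. HOXD11 read 595, 663 and 892 in the control samples and 795, 831 and 850 in the Stau1 samples. HOXA11 read 447, 334 and 365 in the control samples and 338, 356 and 391 in the Stau1 samples. HOXC11 had detection p from 0.0026 to 0.0079, with intensities from 153 to 241. All members of group 10 were detected as well: HOXC10 had detection p of 0 to 0.0026 and HOXD10 was at 0 throughout.

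The 4 members of group 13, the most posterior and known for limb and genital development, were detected on all 6 arrays. HOXD13 had intensities of 726, 694 and 946 in the control samples and 733, 867 and 888 in the Stau1 samples, and HOXC13, a regulator of hair keratin genes, ran from 306 to 467. HOXA13 ran from 201 to 298, with detection p of at most 0.0026. HOXB13, a gene of the prostate and distal gut, ran from 133 to 171, with detection p from 0.0066 to 0.0198.

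At the anterior end, HOXB1, a gene of the fourth hindbrain segment, was detected on all 6 arrays with p from 0 to 0.0026, and HOXD1 with p from 0.0040 to 0.0198. HOXA2 and HOXB2, of the hindbrain and branchial arches, were both detected on 6 arrays. In group 3, HOXB3 had p from 0.0026 to 0.0079 and HOXD3 from 0.0026 to 0.0105, while HOXA3, a gene of pharyngeal development, had p from 0.301 to 0.821.

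In the middle of the clusters, HOXB4, HOXB6 and HOXB9 were detected on 6 arrays, as were HOXC4, HOXC6, HOXC8 and HOXC9. HOXC6 is a row of several probes, and although its mean intensity ran from 824 to 1570, its combined detection p ran from 0.0036 to 0.0146. HOXC5 straddled the limit, with p of 0.0435, 0.0646 and 0.0356 in the control samples and 0.0448, 0.0540 and 0.0211 in the Stau1 samples. HOXD4 had p from 0.0092 to 0.0369 and HOXD8 from 0.0079 to 0.0435. HOXD9 missed the limit on control replicate 2, with a detection p of 0.108, and gave 0.0184 to 0.0264 on the other arrays. HOXC12 had the highest detection p of the HOX genes, from 0.547 to 1.

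**Figure D2:**
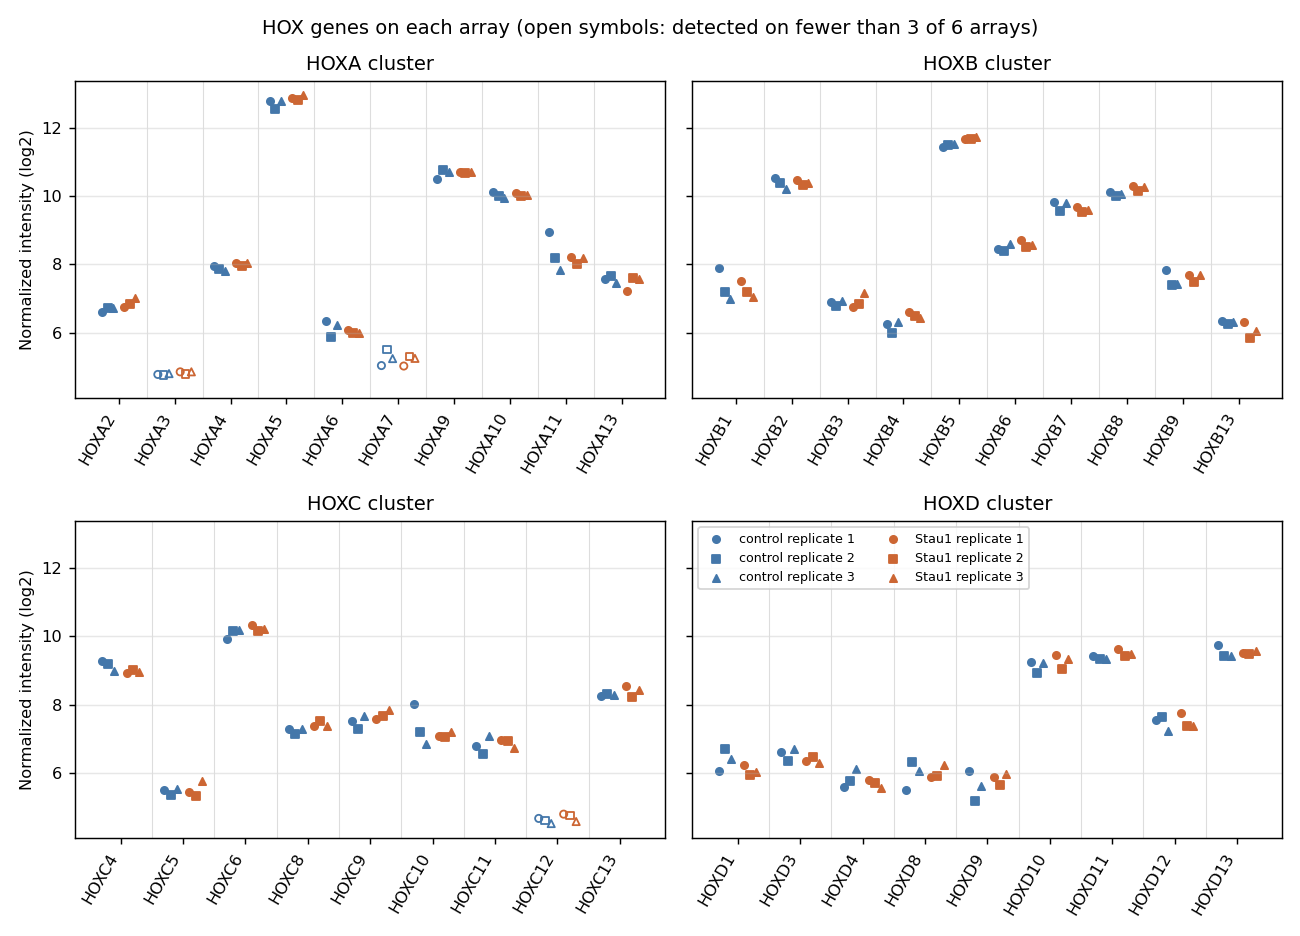
Normalized intensity (log2) of 38 HOX genes on each of the 6 arrays, by cluster; blue symbols are control and orange symbols Stau1 samples, and the symbol shape gives the replicate. Open symbols mark HOXA3, HOXA7 and HOXC12, detected on fewer than 3 arrays; values of different genes are not comparable, and within a gene the 2 groups lie close together.

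Other gene lists were set beside the HOX genes. Of 75 other homeobox genes in the table, 47 (62.7%) were detected by the same criterion and 36 (48%) at p under 0.01, and 23 were detected on 0 arrays. Of the 47, 12 were rows of several probes, and 3 of these passed by their combined p although their mean intensity was below the limit for a single probe on more than 3 arrays. Thus DLX1, MSX1, SIX2 and EN2 were detected on all 6 arrays, and POU5F1, TLX1 and MEOX2 on none. Markers of HEK293 cells were mostly found: 8 of 10 were detected, among them the neurofilament genes NEFL and NEFM, with PAX2 passing on 1 array and EYA1 on none. Of markers of other cell types, 4 of 15 were detected. In blood cells 2 of 5 were detected, among them CD14 on all 6 arrays, while PTPRC and HBB were on none. The others were COL1A1 of fibroblasts (1 of 5) and TTR of hepatocytes (1 of 5). Detection of CD14 in a kidney-derived line is given here because it bears on how far a detection p under 0.05 can be read as expression, which was not tested.

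**Figure D3:**
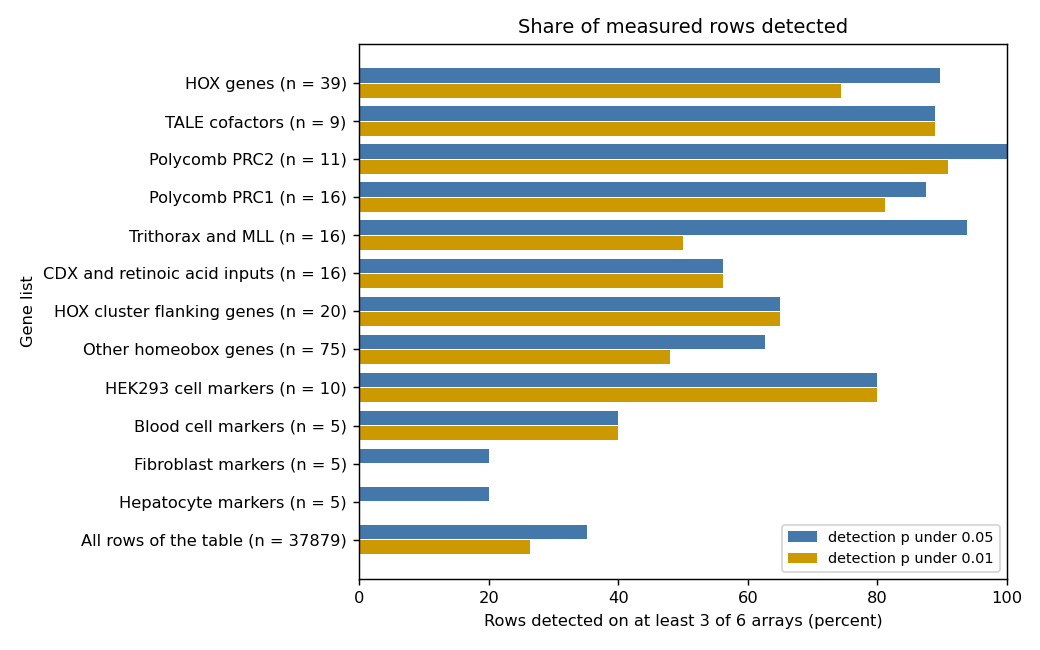
Percent of the measured rows of each list detected on at least 3 of 6 arrays, at a detection p under 0.05 (blue) and under 0.01 (yellow), with the number of rows in brackets. The HOX genes stand at 89.7% and 74.4%, the other homeobox genes at 62.7% and 48% and all rows at 35.1% and 26.3%; the lists were chosen, not drawn at random.

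The factors that act with HOX proteins or on their clusters were largely detected at a detection p under 0.05. Of the TALE homeodomain cofactors, which bind DNA together with HOX proteins, 8 of 9 were detected, among them PBX2, MEIS1 and PKNOX1. MEIS2, a row of several probes, passed on 0 arrays by its combined p (0.0519 or more), although its mean intensity ran from 217 to 324, above the limit for a single probe. All 11 members of Polycomb complex PRC2 were detected, including the methyltransferase gene EZH2, as were 14 of 16 of PRC1 and 15 of 16 of the Trithorax and MLL list. At p under 0.01 these became 10 of 11, 13 of 16 and 8 of 16. Of the CDX and retinoic acid list, 9 of 16 were detected. CDX2 was detected on all 6 arrays and CDX1 and CDX4 on none, and the retinoic acid synthesis gene ALDH1A2 was detected while ALDH1A1 was not. Of 20 genes that flank the HOX clusters, 13 were detected. Among the others, MTX2 and SNX11 are rows of several probes that passed on 1 array each by their combined p. Their mean intensities, 1290 to 2032 and 389 to 663, were above the limit for a single probe on all 6 arrays. EVX1 and EVX2, the homeobox genes at the posterior ends of the HOXA and HOXD clusters, were detected on 0 arrays. None of the 12 noncoding RNAs listed for the HOX clusters had a row that could be matched.

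Between Stau1 and control samples, 0 of the 35 detected HOX genes passed the test. Their lowest adjusted p was 0.999 (limma, Benjamini-Hochberg over all 13285 detected rows), and 1 gene, HOXB5, had an unadjusted p under 0.05. Of all 13285 rows 0% passed, and 3.73% (495) had an unadjusted p under 0.05, with 2.4% in the direction of HOXB5, higher with Stau1. The t-test named in the study's methods (the methods' t-test) was run on the values as normalized here, not as in the study. It gave 4 HOX genes (11.4%) with an unadjusted p under 0.05, against 3.49% of all rows, and 0 after adjustment. The HOX changes ran from -0.33 (HOXD1) to 0.31 (HOXB4) on the log2 scale, with a median standard error of 0.15, and the ends of their 95% intervals lay between -0.76 and 0.64. The standard errors ran from 0.08 (HOXB5) to 0.24 (HOXC10), so the size of change that 3 samples in each group could show differed between the genes.

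**Figure D4:**
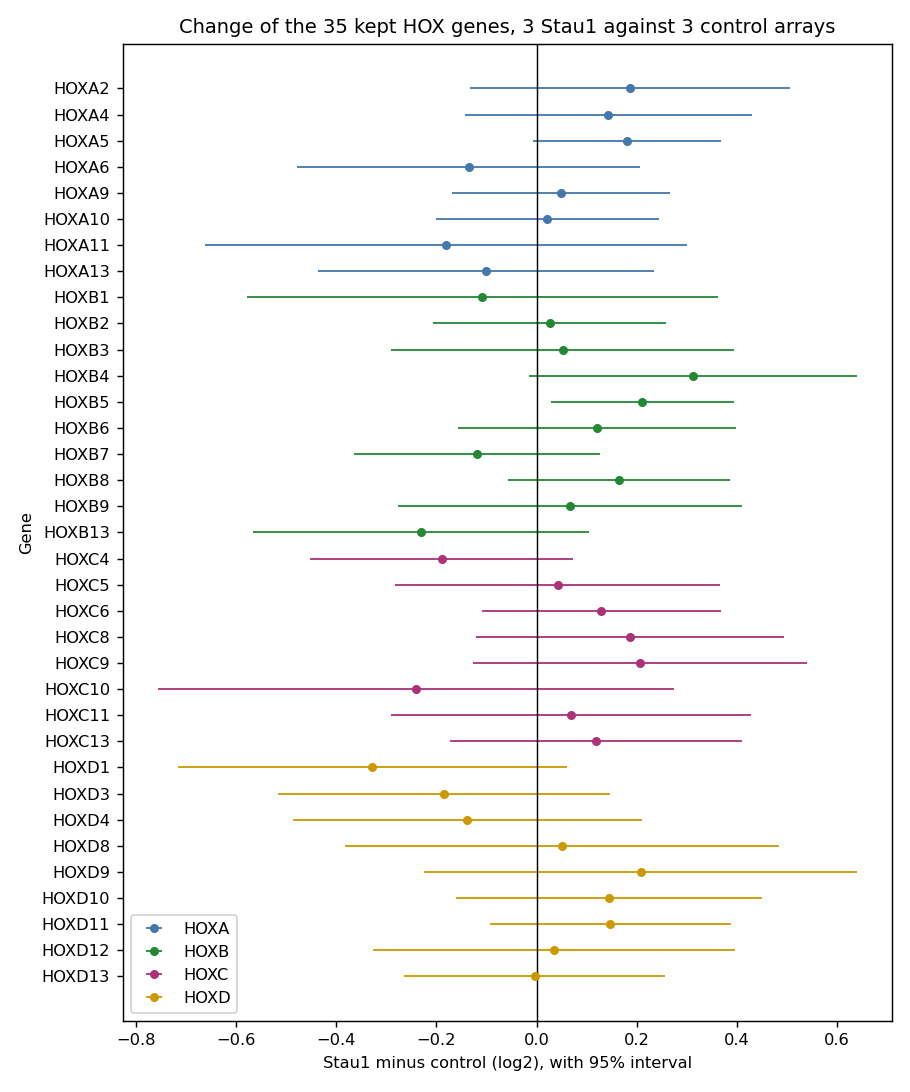
Fitted change (log2, Stau1 minus control) of the 35 detected HOX genes, 3 samples against 3, coloured by cluster; bars are 95% intervals from limma, not adjusted for the number of genes. The interval of HOXB5 alone leaves out 0.

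HOXB5 had the lowest unadjusted p of the HOX genes. Its normalized values (log2) were 11.44, 11.50 and 11.53 in the control samples and 11.67, 11.69 and 11.75 in the Stau1 samples. All 3 Stau1 samples were above all 3 control samples, and the change was 0.21 (log2, SE 0.08, limma adjusted p = 0.999). A two-sided exact permutation test of this gene gave p = 0.1, the smallest that 3 samples against 3 allow.

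HOXA5 followed, with 12.78, 12.56 and 12.78 in the control samples and 12.89, 12.82 and 12.95 in the Stau1 samples. Here too the groups did not overlap, and the change was 0.18 (log2, SE 0.09, limma adjusted p = 0.999). HOXB4, a regulator of blood stem cell renewal, read 6.26, 5.99 and 6.32 in the control samples and 6.60, 6.49 and 6.43 in the Stau1 samples. Its change of 0.31 (log2, SE 0.15, limma adjusted p = 0.999) was the highest of the HOX genes, on a row near background. This value depended on the background correction, as did those of other dim rows. Where all rows served to infer the background, 27 of the 35 HOX genes had a smaller change in size. HOXB4 went from 0.31 to 0.02, HOXA2 from 0.19 to 0.02 and HOXC8 from 0.19 to 0.03, while HOXB5 (0.26) and HOXA5 (0.20) did not shrink.

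The lowest fitted change, -0.33 for HOXD1 (SE 0.18), came with overlapping groups: 6.05, 6.70 and 6.42 in the control samples and 6.24, 5.93 and 6.01 in the Stau1 samples. It was -0.02 with the background inferred from all rows, where that of HOXB13 went from -0.23 to -0.01. HOXC10 (-0.24, SE 0.24), HOXA11 (-0.18, SE 0.22) and HOXB1 (-0.11, SE 0.22) had fitted values below 0 in which 1 array stood high. For HOXC10, control replicate 1 read 8.02 and the other arrays 6.84 to 7.21. For HOXA11, it read 8.95 and the others 7.83 to 8.22, and for HOXB1 it read 7.90 and the others 6.99 to 7.50. Without control replicate 1, the fitted changes of these genes turned to 0.10, 0.13 and 0.16.

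That array was the highest of the 6 for 12 of the 35 HOX genes, and control replicate 2 was the lowest for 12. The median deviation of the HOX genes from their means over the 6 arrays was -0.002, -0.10 and -0.04 (log2) in the control samples and 0.05, -0.04 and 0.04 in the Stau1 samples, so the groups overlapped in this measure. The spread between samples was wider in the control group for 24 of the 35 HOX genes, and for 68.4% of all rows.

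Of the 35 HOX genes, 23 (65.7%) had a fitted change above 0, against 49.4% of all rows, and their median change was 0.05 (log2), against -0.002. The HOX median was 0.01 where all rows served to infer the background. Stau1 samples lay entirely above the control samples for 8 HOX genes (22.9%), against 4.51% of all rows. These were HOXA2, HOXA4, HOXA5, HOXB4, HOXB5, HOXB8, HOXC8 and HOXD11. They lay entirely below for 0 HOX genes, against 3.4% of all rows (7.91% in either direction). The HOX genes share arrays and clusters and are not independent of one another, so these counts carry no test, and no gene among them passed one. The sign of the change was kept by 33 of the 35 genes (all but HOXD12 and HOXD13) over the processing alternatives that used 6 arrays, but by 19 with any 1 array left out.

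**Figure D5:**
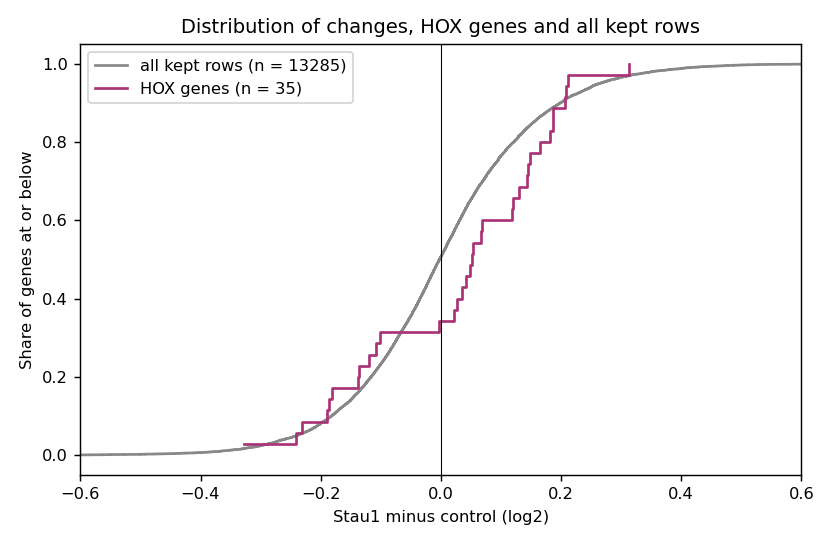
Cumulative share of genes (vertical axis) at or below a fitted change (log2, Stau1 minus control, horizontal axis) for the 35 detected HOX genes (purple) and all 13285 detected rows (grey). The HOX medians and those of all rows were 0.05 and -0.002; the horizontal axis is limited to -0.6 to 0.6.

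By cluster, the fitted change was above 0 for 5 of 8 detected HOXA genes, 7 of 10 HOXB, 6 of 8 HOXC and 5 of 9 HOXD genes. The cluster medians were 0.04, 0.06, 0.09 and 0.04 (log2), all smaller than the median standard error of a single HOX gene.

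In the lists of cofactors and chromatin regulators, 0 genes passed the test in either direction. The genes with the lowest unadjusted p were SETD1A, a histone H3 lysine 4 methyltransferase gene (0.47, SE 0.13), and KMT2A, the MLL1 gene (0.46, SE 0.21), in the Trithorax and MLL list. In PRC1 it was CBX6 (0.23, SE 0.10), in PRC2 RBBP4 (-0.21, SE 0.17) and among the TALE cofactors PKNOX1 (0.34, SE 0.16), each with a limma adjusted p of 0.999. CRABP2, the cellular retinoic acid-binding protein gene, had a fitted value of -0.58 (SE 0.18, limma adjusted p = 0.999) in the CDX and retinoic acid list. The 13 detected flanking genes had a median fitted change of -0.13 (log2), with 2 of 13 above 0, against 49.4% of all rows. Of these flanking genes 0 passed the test, and their count, like those of the HOX genes, carries no test.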

How the data were processed

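Total RNA of 3 control and 3 Stau1 samples was read on 6 arrays. The authors deposited 1 table of signal intensities from BeadStudio, per the file headers a gene profile with no normalization, in which each row is the mean over the probes of 1 gene; 0 value columns were left unmapped. A detection p-value against negative control probes was deposited beside each intensity. So were the standard error over beads (a score in intensity units) and a bead count. The background correction, variance stabilization and t-test in the study's methods are stated for immunoprecipitated RNA.

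From these intensities, the background mean and SD of each array were inferred from the detection p of the 30932 rows of 1 probe (whole bead counts, and p in whole steps of 1 in 759, tolerance 0.002). Background was corrected by normexp (offset 16), arrays were quantile normalized, and log2 values were taken with limma 3.58.1 in R 4.3.3. The 13285 rows whose detection p was below 0.05 in 3 or more of the 6 arrays were fitted (lmFit, eBayes with a variance trend) and p adjusted by Benjamini-Hochberg over all of them. The fit and the adjustment of p were tested on simulated log2 values. The background correction, the normalization and the rule for rows of 1 probe were not tested in this way. The number of arrays limits the precision, and since the labels do not say that replicates were separate cultures, p-values measure the spread between these samples, which may be technical.

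Every HOX row is counted, 1 HOX gene and some listed genes are not reported here by name, and the HOX rows with the 3 lowest unadjusted p, up to 3 members of each list and STAU1 are named with their values. The members and lists were chosen with earlier results of these data known. HOXD1, HOXC10, HOXA11 and HOXB1 were given per array after their values were seen. Older symbols in the table were matched through RefSeq synonyms. Promoter windows came from RefSeq (GRCh38.p14) and matched 20 HOX genes. Alternatives in background correction, normalization, filter, variance model, array weights, pairing, test and samples were run. Probe sequences were not used here, so sharing of signal between HOX paralogs was not tested.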

Additional observations from a re-analysis of the deposited data

How the results depend on the processing

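Under all alternatives run, 0 HOX genes passed the limma test or the methods' t-test, including the fit of all 37879 rows with no filter, where 26 of 39 HOX genes had a change above 0. Over all rows, 0 passed under each alternative with 6 arrays (lowest adjusted p 0.0555, with array weights) and 0 to 47 with 1 array left out; all 47 came without control replicate 3, where 0 were HOX genes and the lowest HOX adjusted p was 0.317. The methods' t-test called 1 row, no HOX gene, without control replicate 1. The count of HOX genes with an unadjusted p under 0.05 rose from 1 to 6 of 35 (17.1%) with array weights, where the share of all rows rose from 3.73% to 9.76%. Median scaling in place of quantile moved the median HOX change from 0.05 to 0.12 (log2), and the median of all rows from -0.002 to 0.07, with 69.4% of all rows above 0 in place of 49.4%. Inferring the background from all rows lowered the median HOX change to 0.01, against -0.000835 for all rows. With 1 array left out, the median HOX change ran from 0.0153 to 0.1014, the STAU1 change from 0.09 to 0.18 and the count of detected HOX genes from 35 to 35, and HOX genes called stayed at 0. Without control replicate 3 the median HOX change was 0.08, and without control replicate 2 it was 0.0153.

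With the replicate number as a block, 0 rows passed, and the median HOX change was 0.05; the deviations of same-numbered samples correlated at 0.02, 0.26 and -0.14, and shared numbers were therefore not treated as pairing. The slide as a block was not run, since the table names no slide. HOXB4, near background, gave no value where a detection p under 0.01 was required on all 6 arrays, which left 25 HOX genes. STAU1 gave none there either, although its normalized values ran from 11.19 to 11.51 (log2). Detected HOX genes numbered 29 at p under 0.01, 33 on all 6 arrays, 37 on at least 1 array and 29 among rows of 1 probe.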

Other observations

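Among homeobox genes outside the HOX clusters, the families differed in detection. Of the DLX genes, which act in forebrain and limb, DLX1, DLX2 and DLX5 were detected on all 6 arrays, DLX3 on 4 and DLX6 on 0. DLX4, a row of several probes, passed on 6 arrays by its combined p alone, since its mean intensities of 85.0 to 108 were below the limit for a single probe on every array. SIX2, SIX4 and SIX5 were detected on all 6 arrays, SIX3 on 1 and SIX6 on 0. Of the brain POU genes, POU3F2 was detected on 6 arrays, with mean intensities of 619 to 877, and POU3F3 and POU3F4 on 0. POU3F1 passed on 6 arrays by the combined p of its probes, but its mean intensities of 89.3 to 117 reached the limit for a single probe on 1 array. EN2, a midbrain and hindbrain gene, had the lowest unadjusted p of this list, with a fitted change of 0.41 (log2, SE 0.18, limma adjusted p = 0.999), and LHX2 (-0.27, SE 0.17) and LHX8 (-0.27, SE 0.17) followed.

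Among the markers of HEK293 cells, the keratin gene KRT8 had a fitted change of -0.61 (log2, SE 0.17, limma adjusted p = 0.999), while its partner keratin KRT18 had one of -0.07 (SE 0.16).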
